A study of Mus musculus with 4 samples.

Results

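The genes described here encode the enzymes and regulators with which a cell makes cholesterol and fatty acids. They were taken from a list of 31 genes driven by sterol regulatory element-binding proteins (SREBPs), and 30 of the 31 had a probe set with a single gene symbol, among 19938 genes measured in the same way. The exception, Acat2, was not analysed here. Expression was read on 4 Affymetrix arrays as log2 values, 1 array for each combination of genotype and dendritic cell (DC) subset. Marrow cells from C57BL/6 mice, either miR-142+/+ (wt) or miR-142-/- (ko), were cultured with Flt3 ligand (Flt3-L, 200 ng/ml) for 8 days, so every group shared the same cytokine, the same culture time and an in vitro origin. miR-142 is a microRNA of blood cells, and Flt3 ligand is the cytokine that drives DC development. CD4-equivalent DCs were sorted as B220-negative CD11c+ CD172+ CD24low CD11b+ cells, and CD8-equivalent DCs as B220-negative CD11c+ CD172- CD24+ CD11blow cells. The labels do not state the age of the mice or the number of animals or cultures used for each array, and the deletion was not described as restricted to one cell type.

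Cells build cholesterol from acetyl-CoA. Condensation gives HMG-CoA, the mevalonate pathway converts this into isoprenoid units, these are joined into squalene, and squalene is oxidised, cyclised to lanosterol and trimmed to cholesterol. Fatty acids come from the same precursor through citrate cleavage, carboxylation and chain building, followed by elongation and desaturation. When sterols in the endoplasmic reticulum run low, the escort protein SCAP carries SREBPs to the Golgi, where they are cut and released to the nucleus; INSIG proteins hold this complex back when sterols are plentiful. Immune cells draw on these pathways for membranes when they grow or divide.

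SREBPs act from promoters, often beside NF-Y, which binds CCAAT boxes, and Sp1, which binds GC boxes. The promoters of 4 of the genes are shown because they carry the motif named for SREBPs (Hmgcs1), because the gene stood higher in CD8-equivalent DCs (Lss and Hsd17b7) or because it stood higher on both ko arrays (Insig1). Each line gives the 150 bases before the transcription start, 5′ to 3′ on the gene's strand, from RefSeq on GRCm38.p6. Capitals mark matches to the motifs TCACNCCAC (the core of a sterol regulatory element), CACGTG (an E-box, to which SREBPs also bind), CCAAT or GGGCGG (a GC box) on either strand. The stretches lie at chr13:119690201-119690350 on the plus strand (Hmgcs1), chr10:76531455-76531604 on the plus strand (Lss), chr1:169969206-169969355 on the minus strand (Hsd17b7) and chr5:28071262-28071411 on the plus strand (Insig1).
Hmgcs1: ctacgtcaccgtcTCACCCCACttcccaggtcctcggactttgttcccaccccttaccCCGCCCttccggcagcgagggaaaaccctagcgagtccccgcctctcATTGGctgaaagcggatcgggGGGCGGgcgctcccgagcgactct
Lss: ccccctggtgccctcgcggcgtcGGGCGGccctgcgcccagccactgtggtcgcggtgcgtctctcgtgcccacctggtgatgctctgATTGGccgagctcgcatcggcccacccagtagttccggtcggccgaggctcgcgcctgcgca
Hsd17b7: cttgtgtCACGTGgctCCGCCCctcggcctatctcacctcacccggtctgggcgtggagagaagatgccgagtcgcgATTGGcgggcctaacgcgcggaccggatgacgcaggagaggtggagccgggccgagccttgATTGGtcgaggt
Insig1: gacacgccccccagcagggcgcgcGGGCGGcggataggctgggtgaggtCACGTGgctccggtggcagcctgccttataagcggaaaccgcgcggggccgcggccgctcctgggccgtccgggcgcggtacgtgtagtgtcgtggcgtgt

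In Hmgcs1 the sterol element core began at position -137 from the start. GC boxes at -92 and -24 and a reversed CCAAT box at -45 lay between it and the start. Of the 31 listed genes, 24 had a promoter in the RefSeq table, read from 250 bases before to 50 bases after the start. The sterol element core occurred in 1 of these 24 (4.17%), against 1.23% of 8283 genes that were expressed above the floor in these cells and 1.44% of all 27025 genes with a promoter. The E-box occurred in 6 of 24 (25%), against 12.3% of the expressed genes and 8.09% of all; these were Insig1, Dhcr7, Hsd17b7, Sc5d, Scap and Elovl5. A CCAAT box occurred in 19 of 24 (79.2%), against 43.1% of the expressed genes and 41.1% of all, and a GC box also in 19 of 24, against 68.8% and 38.2%. Overlapping matches were all counted. These matches describe letters in a window and are not measured binding sites.

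A floor of 5.68, the median value of every probe set with 1 gene symbol, separated low values. Of the 30 genes, 29 lay above it on all 4 arrays, and Scd1 lay below it on the wt CD8-equivalent array only. A gene was compared between arrays when the higher value reached the floor, and a change counted once it reached 1.5-fold (0.58 in log2). There is 1 array a group, so a difference between single arrays has no replicate check and carries no p-value. Effects common to both subsets, or to both genotypes, were tested with limma across 10239 genes with Benjamini-Hochberg adjustment; this fit treats the other factor as the replicate. What is left over in the fit is the difference of the genotype differences between the subsets. It can hold a true difference as well as noise, which may be technical. This spread is drawn towards one shared by all genes tested (1 residual and 3.98 prior degrees of freedom). The p-values therefore do not measure the spread between replicates of a group.

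The deleted gene and most sort markers followed the labels. Mir142, the deleted gene, read 10.37 and 9.87 on the wt arrays (CD4- and CD8-equivalent) and 4.92 and 4.79 on the ko arrays, and Sirpa, which encodes CD172a, was 5.36-fold and 4.75-fold lower in CD8-equivalent DCs of wt and ko. Cd24a, a marker of the CD8-equivalent gate, was 3.43-fold higher there in wt but 1.66-fold in ko. Markers of CD8-equivalent DCs separated the ko subsets less than the wt subsets, with median differences of 0.73 over 7 genes and 2.16 over 8. On the ko CD4-equivalent array Clec9a was 8.37-fold and Cadm1 6.34-fold above the wt CD4-equivalent array. Of the 7 such markers compared there, 5 were 1.5-fold or more higher, against 3.98% of all genes. Xcr1 (0.49) and Batf3 (-0.04) were not, and Itgae lay below the floor on both CD4-equivalent arrays. Cadm1 was lower in CD8- than in CD4-equivalent DCs of ko (-1.71). Other cell types were not evenly spread. The mean log2 value of 8 neutrophil markers was 5.43 on the wt CD4-equivalent, 7.94 on the ko CD4-equivalent and 5.00 and 4.99 on the wt and ko CD8-equivalent arrays. The mean of 6 plasmacytoid DC markers was 8.31 and 10.5 in wt CD4- and CD8-equivalent DCs and 9.41 and 10.7 in ko, although the sort had excluded B220-positive cells. The mean of 7 macrophage markers was 9.53 and 8.55 in wt and 9.56 and 7.11 in ko. Of 4 measured B cell markers only Cd79b (named after its values were seen), and of 6 T and NK cell markers 0, reached the floor on any array.

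**Figure D1:**
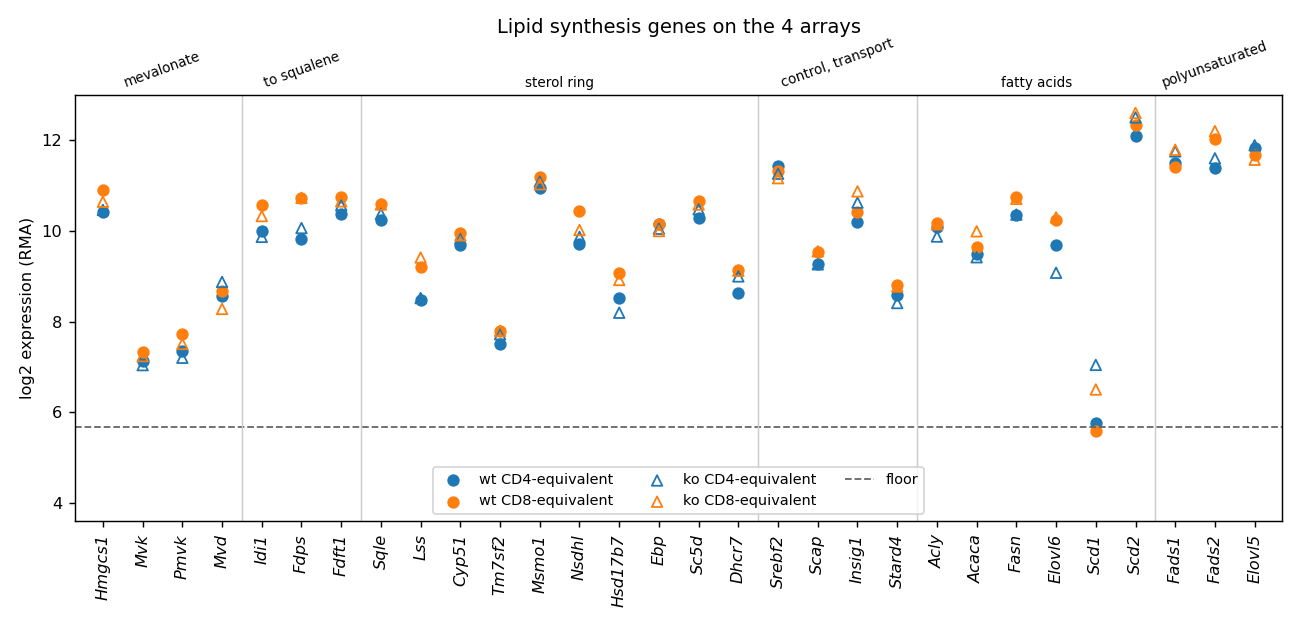
RMA log2 expression (vertical axis) of the 30 lipid synthesis genes (horizontal axis, grouped by role), 1 point for each array; filled circles are wt, open triangles ko, blue CD4-equivalent and orange CD8-equivalent DCs, and the dashed line is the floor of 5.68. For most genes the orange points lie above the blue ones, and Scd1 is the gene that crosses the floor; levels of different genes come from different probes and are not comparable.

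The clearest pattern was between the subsets. Most lipid synthesis genes read higher on the CD8-equivalent than on the CD4-equivalent array of the same genotype, by modest factors. In wt, 25 of the 30 genes were higher in CD8-equivalent DCs, with a median log2 difference of 0.27, where 54.8% of all 9998 genes compared were higher and their median was 0.04. In ko, 24 of 30 were higher with a median of 0.19, but 62.8% of all 10118 genes compared were also higher, with a median of 0.11. On both CD8-equivalent arrays 21 of the 30 genes lay above both CD4-equivalent arrays, and 1 (Elovl5) lay below both; over all genes tested these shares were 37.0% and 21.3%. After cyclic loess normalisation, which brings the median of all genes to -0.001 in wt and 0.0002 in ko, 25 of 30 were still higher in wt with a median of 0.22, but in ko 21 of 30 were higher with a median of 0.10.

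At 1.5-fold or more, 4 genes were higher and 0 lower in CD8-equivalent DCs of wt, against 7.88% of all genes higher and 7.33% lower. In ko 5 were higher and 1 lower, against 12.2% and 8.05% of all genes, so these counts stood close to the background. After cyclic loess the ko count was 2 higher (Lss and Elovl6) and 2 lower (Mvd and Scd1). The share of all genes at 1.5-fold after cyclic loess was not counted, so these 2 counts have no background beside them. The median of the 21 sterol genes in ko was 0.04 after cyclic loess in place of 0.18. With limma, 5 of the 30 genes were higher in CD8-equivalent DCs across both genotypes and 0 were lower, where 7.98% of all genes tested were called higher and 6.35% lower. Without adjustment, 8 were higher and 1 lower at p under 0.05, against 20.3% and 13% of all genes. Over all genes 55.7% of the calls were higher in CD8-equivalent DCs, and 44.9% after cyclic loess. The 5 called genes were Lss, Fdps, Hsd17b7, Fads2 and Elovl6.

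**Figure D2:**
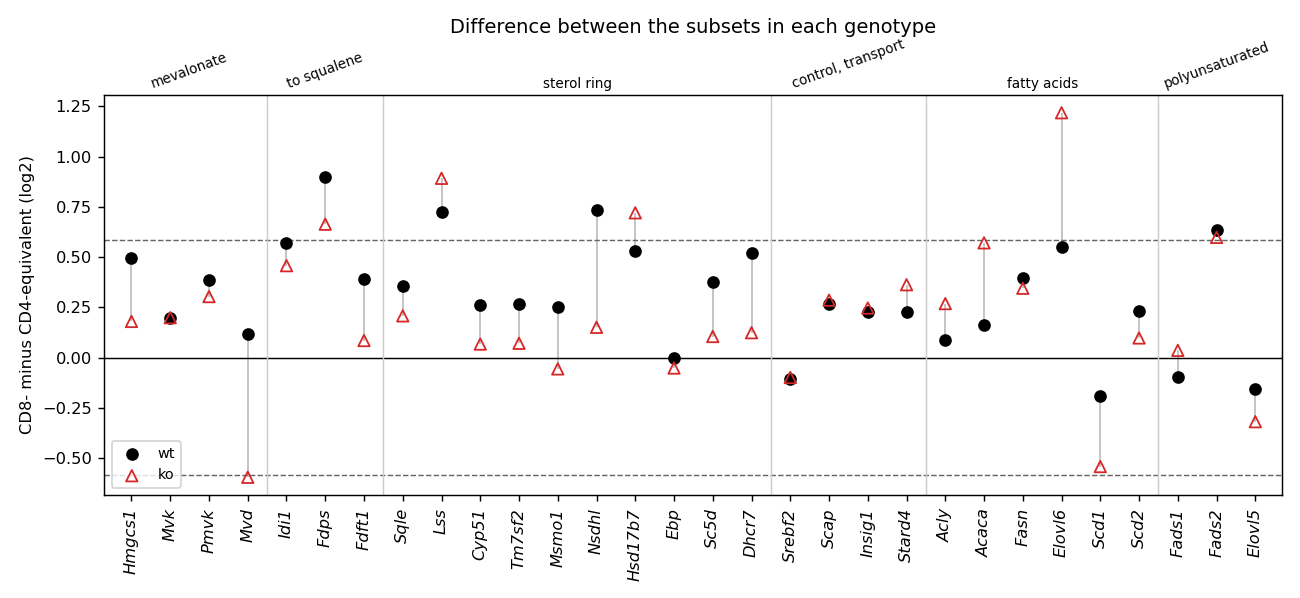
Log2 difference of CD8-equivalent minus CD4-equivalent DCs (vertical axis) for each gene in pathway order (horizontal axis), filled circles for wt and open triangles for ko, with dashed lines at 1.5-fold either way. Most points lie above 0; Fdps, Lss, Nsdhl and Fads2 pass 1.5-fold in wt, while Elovl6 is the highest (1.22) and Mvd the lowest (-0.59) in ko.

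Of the 4 mevalonate genes, 0 passed the test. Hmgcs1, which makes HMG-CoA, read 10.41 on the wt CD4-equivalent and 10.91 on the wt CD8-equivalent array, and 10.46 and 10.64 on the corresponding ko arrays, a difference between subsets of 0.50 in wt and 0.18 in ko (limma adjusted p = 0.16). The kinases Mvk (0.20 and 0.20) and Pmvk (0.39 and 0.30) were also higher in CD8-equivalent DCs of both genotypes without passing the test. Mvd, the decarboxylase that ends this stretch, did not follow them. It read 8.55 and 8.67 in wt CD4- and CD8-equivalent DCs and 8.87 and 8.28 in ko, so the subsets differed by 0.12 in wt and by -0.59 in ko, and the ko CD8-equivalent array held its lowest value.

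The steps from isoprenoids to squalene were higher in CD8-equivalent DCs at all 3 genes. Fdps, which joins isoprenoid units into farnesyl diphosphate, the branch point towards sterols and prenylated proteins, read 9.83 and 10.73 in wt CD4- and CD8-equivalent DCs and 10.06 and 10.73 in ko. The CD8-equivalent level was 1.87 times the CD4-equivalent level in wt and 1.58 times in ko, a mean log2 difference of 0.78 ± 0.13 (SE; limma adjusted p = 0.024). Idi1, the isomerase just before it, read 9.99 and 10.56 in wt and 9.87 and 10.32 in ko, and its mean difference of 0.51 ± 0.12 (SE) missed the threshold (limma adjusted p = 0.052). A second probe set of Idi1 gave 0.57 in wt and 0.37 in ko. Fdft1, which makes squalene, differed by 0.39 and 0.09, and its other probe set by 0.37 and 0.18.

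Among the 10 genes from squalene to cholesterol, 9 were higher in the CD8-equivalent subset in wt and 8 in ko, with medians of 0.37 and 0.11. Lss, the cyclase that folds squalene epoxide into lanosterol, read 8.47 and 9.20 in wt CD4- and CD8-equivalent DCs and 8.52 and 9.41 in ko. Both CD8-equivalent arrays lay above both CD4-equivalent arrays by more than the genotypes differed, and the mean difference was 0.81 ± 0.12 (SE; limma adjusted p = 0.021). Hsd17b7, a ketoreductase of sterol trimming that also acts on steroid hormones, read 8.53 and 9.06 in wt and 8.20 and 8.92 in ko. Its mean difference was 0.63 ± 0.12 (SE; limma adjusted p = 0.036), a call that was lost without the floor (adjusted p = 0.052). Nsdhl, which works in the same demethylation complex, read 9.71 and 10.45 in wt but 9.87 and 10.02 in ko, so its difference of 0.73 in wt stood beside 0.15 in ko (limma adjusted p = 0.16).

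The other members of this stretch differed by less. Dhcr7, the last reductase of one route to cholesterol, differed by 0.52 in wt and 0.12 in ko, and Sc5d, the desaturase just before it, by 0.37 and 0.11. The squalene epoxidase Sqle, a slow step of the pathway, differed by 0.36 and 0.21, the lanosterol demethylase Cyp51 by 0.26 and 0.07 and the sterol reductase Tm7sf2 by 0.27 and 0.07. Msmo1, a methyl oxidase, differed by 0.25 and -0.06, and the isomerase Ebp by -0.002 and -0.05. None of these 7 passed the test.

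The regulators showed small differences between the subsets. Srebf2, which encodes the SREBP of sterol synthesis, read 11.43 and 11.32 in wt CD4- and CD8-equivalent DCs and 11.26 and 11.16 in ko, and was thus slightly lower in CD8-equivalent DCs (-0.11 and -0.10; limma adjusted p = 0.58). Scap differed by 0.27 and 0.29, Insig1 by 0.23 and 0.25, and Stard4, a carrier of cholesterol between membranes, by 0.23 and 0.36, with adjusted p-values from 0.16 to 0.23. The RNA of Srebf2 itself was thus not higher on the arrays where most of the enzyme genes were.

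On the fatty acid side, 6 of 9 genes were higher in the CD8-equivalent subset in wt and 7 in ko. Fads2, the desaturase that opens the route to long polyunsaturated fatty acids, read 11.38 and 12.01 in wt CD4- and CD8-equivalent DCs and 11.59 and 12.19 in ko. It was 1.55-fold and 1.51-fold higher in CD8-equivalent DCs, a mean log2 difference of 0.62 ± 0.12 (SE; limma adjusted p = 0.033). Fads1, which acts later on the same route, did not share this difference (-0.09 in wt and 0.04 in ko), while Fads3, a relative in the same gene cluster that was not on the list, was 2.40-fold and 3.42-fold higher in CD8-equivalent DCs (limma adjusted p = 0.012). Elovl5, the elongase between the desaturation steps, read 11.83 and 11.68 in wt and 11.88 and 11.57 in ko, the reverse order of subsets in both genotypes (-0.16 and -0.32; limma adjusted p = 0.24).

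Elovl6, which lengthens palmitate, had the largest mean difference between the subsets on the list. It read 9.69 on the wt CD4-equivalent and 10.24 on the wt CD8-equivalent array, against 9.08 and 10.29 in ko. The subsets differed 1.47-fold in wt and 2.33-fold in ko, with a mean log2 difference of 0.89 ± 0.19 (SE; limma adjusted p = 0.043) that was not called without the floor (adjusted p = 0.090). Fasn, the synthase that builds palmitate, differed by 0.40 and 0.35 (limma adjusted p = 0.097). Acaca, the carboxylase that commits acetyl-CoA to this route, differed by 0.17 and 0.57, and by 0.30 and 0.40 at its other probe set. Acly, which cleaves citrate to acetyl-CoA, differed by 0.09 and 0.27.

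Related genes outside the list were compared in the same way. Of 8 other sterol pathway genes measured, 7 were higher in the CD8-equivalent subset in wt and 6 in ko, and 1 was called, Tmem97, a sterol-responsive membrane protein (0.84 and 0.82; limma adjusted p = 0.018). Of 12 other fatty acid pathway genes at or above the floor, 10 in wt and 9 in ko were higher in CD8-equivalent DCs, and Fads3 alone was called. In the isoprenoid branch these counts were 9 and 11 of 13. Genes of cholesterol export and others tied to its nuclear receptors (LXR-related genes) mostly ran the other way. The LXR genes themselves were not among the 7 compared. Of these 7, 0 were called higher and 4 lower in CD8-equivalent DCs, with a median over the 7 of -0.61. Those called were the export pumps Abca1 (-1.17 and -0.91, limma adjusted p = 0.015) and Abcg1 (-0.58 and -0.63, adjusted p = 0.034). The others were Mylip, which degrades the LDL receptor (-0.55 and -0.54, adjusted p = 0.043), and the sterol hydroxylase Cyp27a1 (-0.81 and -1.55, adjusted p = 0.026). Among 9 uptake and storage genes, 0 were called higher and 2 lower: the lipoprotein receptor Lrp1 (-2.51 and -3.57; adjusted p = 0.0076) and the lysosomal lipase Lipa (-0.73 and -1.21; adjusted p = 0.024). Of all genes tested, 7.98% were called higher and 6.35% lower in CD8-equivalent DCs, and their median was 0.08. Of all genes compared, 54.8% were higher in CD8-equivalent DCs in wt and 62.8% in ko. The lists are of unequal size and differences between them were not tested.

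**Figure D3:**
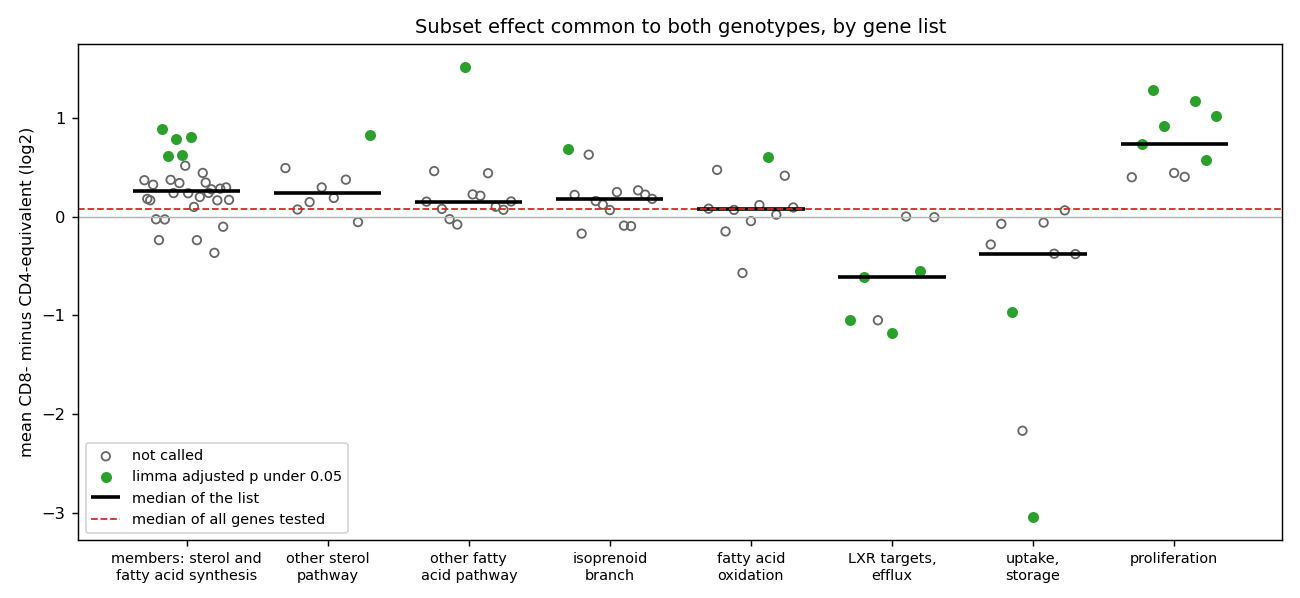
Mean log2 difference of CD8-equivalent minus CD4-equivalent DCs over both genotypes (vertical axis) for each gene at or above the floor, by list (horizontal axis); green points have a limma adjusted p under 0.05, black bars are list medians and the red dashed line is the median of all genes tested, 0.08. The synthesis genes have a median of 0.26 and the list of LXR targets and efflux genes of -0.61, while the proliferation genes stand highest with 0.73.

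Markers of dividing cells also stood higher on the CD8-equivalent arrays. All 9 measured proliferation genes were higher in CD8-equivalent DCs of both genotypes, with medians of 0.58 in wt and 0.68 in ko. The medians of the 30 lipid synthesis genes were 0.27 in wt and 0.19 in ko. Limma called 6 of the proliferation genes, such as the ribonucleotide reductase subunit Rrm2 (1.05 and 1.29, adjusted p = 0.012). Of all genes compared, 54.8% in wt and 62.8% in ko were higher, and limma called 7.98% of those tested higher in CD8-equivalent DCs. The plasmacytoid markers were higher there too, with 6 of 6 above 0 in both genotypes and medians of 2.11 and 0.84, and the macrophage markers were lower, with 6 of 6 genes compared below 0. The part of these in the higher lipid synthesis genes was not tested. In ko all 7 neutrophil markers compared were lower in CD8-equivalent DCs, with a median of -3.83, and their part was not tested either. In RNA from sorted pools, more cells of a type and more RNA per cell cannot be told apart.

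The second comparison was between the genotypes, and most of these genes differed little. With limma, 0 of the 30 genes were called between ko and wt, where 0.107% of all genes tested were called higher and 0.0586% lower. Without adjustment, 4 genes were higher in ko and 0 lower at p under 0.05: Scd1, Insig1, Scd2 and Fads1. Over all genes tested 7.34% were higher and 8.27% lower by this measure. The same 4 genes had both ko arrays above both wt arrays, which rests on the same values and is no separate evidence. Srebf2 and Ebp had both ko arrays below both wt arrays. Over all genes tested, 9.79% had both ko arrays above both wt arrays. The share below both was not counted, so Srebf2 and Ebp cannot be set against a background.

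**Figure D4:**
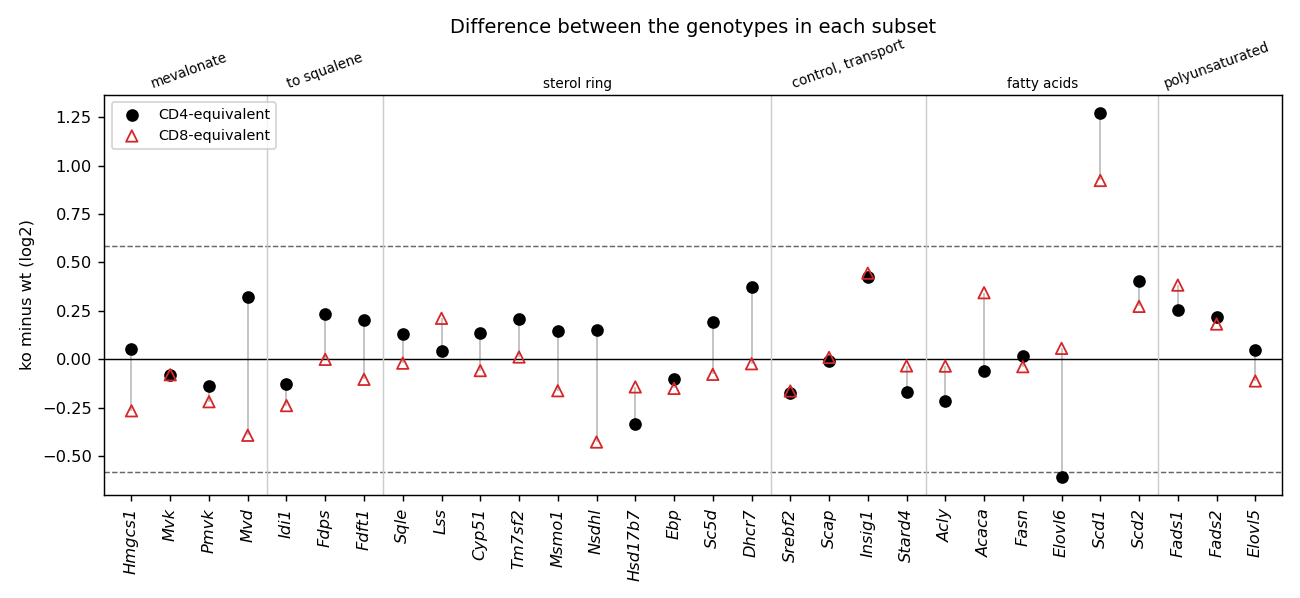
Log2 difference of ko minus wt (vertical axis) for each gene in pathway order (horizontal axis), filled circles for CD4-equivalent and open triangles for CD8-equivalent DCs, with dashed lines at 1.5-fold either way. Scd1 stands apart at 1.27 and 0.92, Elovl6 is the lowest in CD4-equivalent DCs (-0.61), and most sterol genes are below 0 in CD8-equivalent DCs.

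Scd1, a stearoyl-CoA desaturase that makes monounsaturated fatty acids, had the largest genotype difference. It read 5.77 on the wt CD4-equivalent and 5.58 on the wt CD8-equivalent array, close to the floor, against 7.05 and 6.51 on the ko arrays. Both ko values lay above both wt values. The measured difference was 2.42-fold in CD4-equivalent DCs. In CD8-equivalent DCs it was 1.90-fold as measured and 1.77-fold against the floor, since the wt value lay below it and the gene was compared there only through its ko value. The fitted mean log2 difference, which uses that value, was 1.10 ± 0.14 (SE; limma adjusted p = 0.061). It passed the threshold after cyclic loess (adjusted p = 0.040) and under a trended, robust limma prior (adjusted p = 0.026), but not without the floor (adjusted p = 0.12). RMA compresses differences near background, where the wt values lie.

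Scd2, the close relative of Scd1, read 12.09 and 12.32 in wt CD4- and CD8-equivalent DCs and 12.50 and 12.59 in ko, a mean difference of 0.34 ± 0.12 (SE; limma adjusted p = 0.29). Whether the probes of these related genes are partly shared was not tested. On the wt arrays, where Scd2 read 12.09 and 12.32, Scd1 read 5.77 and 5.58, close to the floor. Insig1, the sterol sensor that retains SREBPs and is itself an SREBP target, read 10.20 and 10.42 in wt and 10.62 and 10.87 in ko. It was 1.34-fold and 1.36-fold higher in ko, with a mean difference of 0.43 ± 0.12 (SE; limma adjusted p = 0.20). Fads1 read 11.50 and 11.40 in wt and 11.75 and 11.78 in ko, a mean difference of 0.32 ± 0.12 (SE; limma adjusted p = 0.31). Fads2 also lay above wt in both subsets (0.22 and 0.18) but overlapped across subsets.

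In CD4-equivalent DCs, 19 of the 30 genes were higher in ko, with a median of 0.09, although 36.2% of all 9978 genes compared were higher there and their median was -0.08. On the same arrays the markers of CD8-equivalent DCs had a median of 1.00, the plasmacytoid markers of 0.97 and the neutrophil markers of 3.11, and their part in these differences was not tested. Scd1 was the single gene 1.5-fold or more higher, against 3.98% of all genes, and Elovl6 the single one lower, against 3.72%. Insig1 (0.42), Dhcr7 (0.37), Mvd (0.32), Fdps (0.23), Tm7sf2 (0.21), Fdft1 (0.20) and Sc5d (0.19) were among the sterol genes that stood above wt, and Hsd17b7 (-0.33) was the lowest of them. After cyclic loess 22 of 30 were higher, with a median of 0.17, and the median of all genes was 0.008.

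In CD8-equivalent DCs the sterol genes leaned the other way, with 17 of 21 lower in ko and a median of -0.08, while 6 of 9 fatty acid genes were higher with a median of 0.18. Of the 8 other sterol pathway genes 7 were higher in ko in this subset, with a median of 0.14. Over all 9972 genes compared, 50.7% were higher in ko and 4913 genes were lower, with a median of 0.004. Scd1 was again the single gene at 1.5-fold or more (0 lower), against 4.61% of all genes higher and 3.48% lower. Nsdhl (-0.43), Mvd (-0.39), Hmgcs1 (-0.27), Idi1 (-0.24) and Pmvk (-0.22) were lowest. Lss (0.21) and Insig1 (0.44) stood furthest above wt on the sterol side, and Acaca read higher in ko at both of its probe sets (0.34 and 0.33). In CD4-equivalent DCs the probe sets of Acaca disagreed in sign (-0.06 and 0.23).

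The genotype difference therefore had the same sign in both subsets for 15 of 30 genes, 7 higher and 8 lower, and opposite signs for 15. Over all 9711 genes compared in both subsets, 23.9% were higher in both and 38.1% lower in both. The difference of the differences (CD8- minus CD4-equivalent, each ko minus wt) ran from -0.71 for Mvd to 0.67 for Elovl6. These 2 genes passed 1.5-fold, against 8.55% of all genes, and Nsdhl (-0.58) came next; the value uses the last degree of freedom of the design and was not tested. For the subset difference, signs in wt and ko agreed at 27 of 30 genes, 23 higher and 4 lower in both. Over 9877 genes, 46.8% were higher in both and 28.9% lower in both. Across the 30 genes the values in wt and ko had a Pearson r of 0.69, against 0.80 over the 9877 genes. Genes on an array are not independent, and these pairs of comparisons use separate arrays.

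Many genes had small genotype differences with intervals that still leave room for moderate ones. Fasn had a mean difference of -0.01 with a 95% interval of -0.31 to 0.29, Srebf2 of -0.17 (-0.47 to 0.13), Hmgcs1 of -0.11 (-0.46 to 0.24), Sqle of 0.05 (-0.26 to 0.36) and Acly of -0.13 (-0.44 to 0.19). Scap had a mean difference of -0.001 (-0.30 to 0.30). For these 6 genes the intervals exclude a 1.5-fold difference in either direction, as far as 1 residual degree of freedom allows. Stard4 differed by -0.17 and -0.03.

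Of 7 LXR-related genes, 1 was called between the genotypes, where 0.107% of all genes tested were called higher and 0.0586% lower. Abca1, which is induced by LXR when sterols accumulate, read 7.42 and 6.25 in wt CD4- and CD8-equivalent DCs and 9.10 and 8.18 in ko, and was higher in ko (mean difference 1.80 ± 0.13 (SE); limma adjusted p = 0.032). Cyp27a1 was 1.31-fold lower in ko CD4-equivalent and 2.18-fold lower in ko CD8-equivalent DCs. Its effect common to both subsets was not called (limma adjusted p = 0.19). Cd36, a fatty acid transporter, was 1.73-fold and 2.41-fold lower in ko CD4- and CD8-equivalent DCs (limma adjusted p = 0.080 for the common effect). Scd1 is also an LXR target, besides its control by SREBPs, and the part of either in its genotype difference was not tested. Apoe, another LXR target and a macrophage gene, was 1.27-fold lower in ko CD4-equivalent and 4.46-fold lower in ko CD8-equivalent DCs. Its effect common to both subsets was not called (limma adjusted p = 0.27). In CD8-equivalent DCs 4 of the 5 other macrophage markers compared were lower too, and their part in the Apoe difference was not tested. Of the related synthesis genes, 0 of 8 other sterol pathway genes and 0 of 12 other fatty acid genes were called between the genotypes.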

How the data were processed

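Total RNA was isolated from sorted DCs with a miRNeasy kit and hybridised as biotin-labelled material, 1 array per group. Per the labels and the submitters' processing notes, the authors summarised probes with RMA and used Partek; no version or setting is stated there. The deposited values are on a log2 scale, inferred from their range of 3.52 to 14.3, and the column medians ran from 5.87 to 5.94. RMA compresses low values. The platform annotation of 2016 gave 1 symbol to 21789 of 35399 probe sets, several to 1621 and none here to 11989. For genes with several probe sets the one with the highest mean was used. Differences of log2 values were taken between arrays, and limma 3.58.1 (R 4.3.3) fitted genotype and subset additively to 10239 genes at or above the floor, two-sided, with 1 residual and 3.98 prior degrees of freedom; the script was tested on simulated data. Named genes were all list members, the deleted gene and sort markers, and genes of related lists that were called or differed 2-fold (of marker and proliferation lists, examples); Cd79b is an exception. The members and lists were chosen with earlier results of these data known. Alternatives were no floor, a 2-fold threshold, averaged probe sets, cyclic loess and a trended robust prior; the comparison of promoters with expressed genes was chosen after seeing the data. Leaving out an array leaves no degree of freedom.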

Additional observations from a re-analysis of the deposited data

Results flagged for a closer look

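Mvd and Elovl6 were picked out because a difference had opposite signs in the groups compared and passed 1.5-fold in one of them. For Mvd the subsets differed by 0.12 in wt and by -0.59 in ko. For Elovl6 the genotypes differed by -0.61 in CD4-equivalent and by 0.0558 in CD8-equivalent DCs. Neither contrast of differences was tested, since each rests on 4 single arrays.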

How the results depend on the processing

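A 2-fold threshold left 1 gene between the genotypes in CD4-equivalent DCs (Scd1) and 0 in CD8-equivalent DCs. Between the subsets it left 0 in wt and 1 in ko (Elovl6). In ko CD4-equivalent DCs 139 of all 9978 genes compared were 2-fold or more higher and 95 lower. In ko CD8-equivalent DCs these counts were 114 and 100 of 9972. Between the subsets, 210 of 9998 genes were higher and 314 lower in CD8-equivalent DCs of wt, and 343 and 395 of 10118 in ko. After cyclic loess 1 gene differed by 1.5-fold between the genotypes in CD4-equivalent DCs, since Elovl6 no longer did. The share of all genes at 1.5-fold after cyclic loess was not counted. Scd1 was the 1 gene called between genotypes after cyclic loess and with the trended and robust prior. Without the floor, which tests 19938 genes, 3 genes were called between the subsets (Lss, Fdps and Fads2) in place of 5. Of all genes tested in that way, 501 were called higher and 445 lower in CD8-equivalent DCs. Genotype differences near 0 changed sign after cyclic loess for Mvd (0.0277), Msmo1 (0.0229), Scap (0.0539) and Fasn (0.0276). The trended and robust prior also called Idi1 and Fasn between subsets, where 1223 of all 10239 genes were called higher and 905 lower. Over all genes the share of subset calls that were higher in CD8-equivalent DCs was 55.7% as deposited and 44.9% after cyclic loess (789 higher and 968 lower), while genotype calls, 11 higher and 6 lower as deposited, were 1 and 2 without the floor, 91 and 39 after cyclic loess and 178 and 129 with the trended and robust prior. Cyclic loess moved the median over the 30 genes from 0.09 to 0.17 between the genotypes in CD4-equivalent DCs and from 0.19 to 0.10 between the subsets in ko, and averaging probe sets changed no call of a listed gene. With 4 arrays in all, precision is limited throughout, and no array could be left out for a test.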

Other observations

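Among genes that use the products of the pathway, 0 of 13 in the isoprenoid branch were called between the genotypes. This branch feeds protein prenylation, dolichol and coenzyme Q. In ko CD4-equivalent DCs 12 of 13 genes were lower (median -0.14), as were 6367 of all 9978 genes compared (median -0.08), and 0 of 13 reached 1.5-fold. In ko CD8-equivalent DCs 7 of 13 were lower (median -0.02). At 1.5-fold, 1 was higher and 0 lower there, against 4.61% and 3.48% of all genes compared. Between the subsets, 1 of the 13 was called higher in CD8-equivalent DCs, Coq2, which attaches the side chain of coenzyme Q (0.52 in wt and 0.85 in ko; limma adjusted p = 0.038). Of 11 fatty acid oxidation genes, 0 were called between the genotypes, and at 1.5-fold 0 were higher and 1 lower in ko CD8-equivalent DCs. Between the subsets 1 of the 11 was called higher in CD8-equivalent DCs, the dehydrogenase gene Hadh (0.57 and 0.63, limma adjusted p = 0.035). The list median was 0.08, the same as that of all genes tested, of which 7.98% were called higher in CD8-equivalent DCs.

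Lpl, the lipase that frees fatty acids from lipoproteins, was 4.81-fold lower in ko than in wt CD8-equivalent DCs. In CD4-equivalent DCs Lpl was 1.32-fold higher in ko, and the genotype effect common to both subsets was not called (limma adjusted p = 0.53). The difference in CD8-equivalent DCs alone was not tested. The macrophage markers were lower on the same ko CD8-equivalent array (mean log2 value 7.11, against 8.55 in wt).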
